A study of Mus musculus with 34 samples.

Results

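A set of 10 genes whose products act in activated myeloid cells was followed in mouse pancreatic islets. The mice were untreated or had been given a toxin aimed at beta cells. The genes were Acod1, Clec4d, Clec4e, Il1b, Il1rn, Tnf, Il6, Nos2, Ptgs2 and Nlrp3. They were taken by name from a table of 48709 genes, and all 10 were found. They were selected on their measured levels at 5 days after ablation, and every value that uses those libraries is given for them as a description without a test.

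The islets came from mice whose genotype is labelled RIP-DTR HTZ in every group, untreated groups included. In this model the rat insulin promoter puts a receptor for diphtheria toxin (DT) on beta cells. Counts were deposited for 34 libraries of bulk RNA-seq, and 33 of them fall into 9 groups. In the early part of the study, 4 libraries came from mice 30 days after ablation with DT (DT 30 DPA), 4 from mice 5 days after it (DT 5 DPA) and 3 from untreated mice with no time in their label (CTRL). In the part sampled at 10 weeks, mice were labelled HFD or SD for their diet. On HFD there were 3 libraries after DT, 4 after streptozotocin (STZ), a chemical toxin for beta cells, given at 75 mg/kg, and 4 from untreated mice. On SD there were 4 after DT, 4 after STZ at 75 mg/kg and 3 from untreated mice. Nothing in the labels gives age, sex, the dose of DT or any pooling of animals. No label says that replicates are separate animals, so p-values measure the spread between these libraries, which may be technical.

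Macrophages live in islets in health and take up dying cells. When such cells sense damage or microbes, pattern receptors switch on cytokine genes through NF-kB, and the cells also remodel their metabolism. Acod1 makes itaconate in mitochondria, a metabolite that restrains inflammatory output. Clec4d and Clec4e are C-type lectin receptors, and Clec4e also binds a nuclear protein set free by dead cells. The sensor Nlrp3 assembles the inflammasome that leads to maturation of interleukin 1 beta, the product of Il1b, while Il1rn encodes the antagonist of its receptor.

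Library totals ran between 11083117 and 18918348 counts. Beta cell markers summed to between 29716 and 306918 CPM over the 33 libraries, so all of them held islet RNA. CPM here means counts per 1000000 of the library size after TMM scaling. RNA of other tissues also stood out. Markers of enterocytes summed to over 500 CPM in 8 libraries, among them DT 5 DPA replicates 1, 2 and 4, DT 30 DPA replicate 2, CTRL replicate 2 and DT HFD replicate 1. Acinar markers summed to 524179 CPM in STZ HFD replicate 4. In bulk tissue, more cells of a type and more RNA per cell cannot be told apart.

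Start-site sequences are shown first for 6 of the genes, because most of them moved together at 5 days while Tnf did not. Each line holds the 150 bases before the RefSeq start site on GRCm38.p6 (the patch release of mm10), 5′ to 3′ on the strand of the gene. Capitals mark a TATA box (TATAAA), a C/EBP motif (TTGCNNAA) or a kappaB motif, found on either strand.
Acod1, chr14:103046862-103047011, plus strand: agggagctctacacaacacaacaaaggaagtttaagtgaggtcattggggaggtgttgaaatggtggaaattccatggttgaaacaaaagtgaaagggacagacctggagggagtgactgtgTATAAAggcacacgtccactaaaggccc
Clec4d, chr6:123261957-123262106, plus strand: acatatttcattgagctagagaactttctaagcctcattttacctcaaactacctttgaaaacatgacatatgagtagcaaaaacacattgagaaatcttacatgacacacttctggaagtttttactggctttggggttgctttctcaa
Clec4e, chr6:123289872-123290021, minus strand: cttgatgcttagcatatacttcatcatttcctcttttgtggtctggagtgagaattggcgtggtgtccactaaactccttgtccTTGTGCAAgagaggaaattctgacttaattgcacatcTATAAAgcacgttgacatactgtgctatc
Il1b, chr2:129371140-129371289, minus strand: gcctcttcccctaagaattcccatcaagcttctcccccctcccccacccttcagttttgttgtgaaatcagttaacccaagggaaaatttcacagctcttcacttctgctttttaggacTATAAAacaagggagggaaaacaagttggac
Tnf, chr17:35202008-35202157, minus strand: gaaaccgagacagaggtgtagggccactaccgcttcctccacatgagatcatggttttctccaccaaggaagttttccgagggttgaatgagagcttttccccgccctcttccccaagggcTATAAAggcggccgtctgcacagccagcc
Il6, chr5:30012964-30013113, plus strand: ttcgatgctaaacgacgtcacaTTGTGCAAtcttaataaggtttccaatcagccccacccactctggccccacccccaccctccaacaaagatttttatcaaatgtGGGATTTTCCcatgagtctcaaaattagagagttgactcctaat
RefSeq gave a window for 9 of the 10 genes, and none was found for Nos2. Windows of 250 bases before to 50 after the start were searched, and all 32851 windows in the table served as the background. The 9 genes had 12 windows, and a gene was counted if any of its windows held the motif. Background shares are per window, so they are not on the same scale as these counts per gene. Counted at any position and on either strand, TATAAA was in windows of 5 of the 9, against 13.6% of all windows. In Acod1, Clec4e, Il1b and Tnf it started 28 to 31 bases before the start, and in Il1rn it lay after the start on the opposite strand. The kappaB motif occurred in Il6, beginning 44 bases before the start, and in windows of Il1rn, against 1.63% of all windows. The C/EBP motif occurred in Clec4e, Il6 and Ptgs2, against 10.8%. An AP-1 motif (TGANTCA) was found in Il6 and Il1rn, against 7.81%, and the interferon-stimulated element in Clec4d alone, against 3.44%. An ETS/PU.1 motif (GAGGAA), not capitalised above, was in 6 of the 9, against 28.3%. These matches are descriptions of letters and not evidence of binding.

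Acod1 (ENSMUSG00000022126, chr14:103046977-103056573 on GRCm38, plus strand) was almost silent in every group but one. Its raw counts were 1143, 1004, 557 and 758 in the 4 DT 5 DPA libraries, against 4, 10 and 3 in CTRL. On the CPM scale these were 75.0, 70.9, 43.9 and 45.2 in DT 5 DPA, against 0.232, 0.599 and 0.184 in CTRL. The groups did not overlap, and the fitted difference was 169-fold (log2 fold change 7.40, SE 0.99). At 30 days Acod1 stood at 1.74, 0, 0.135 and 0.0728 CPM in DT 30 DPA, within the range of the 10 untreated libraries (0 to 0.599 CPM) but for replicate 1. The fitted log2 fold change of DT 30 DPA over DT 5 DPA was -6.87 (SE 0.84), and without DT 30 DPA replicate 1 it was -9.64. Without CTRL replicate 2, the log2 fold change of DT 5 DPA over CTRL was 8.08.

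The lectin receptors Clec4d and Clec4e are neighbours on chromosome 6 (chr6:123262111-123275265, plus strand, and chr6:123281789-123289870, minus strand). Clec4d stood at 102, 48.8, 49.2 and 38.6 CPM in DT 5 DPA, against 0.637, 0.300 and 0.737 CPM in CTRL. Clec4e stood at 100.3, 60.5, 48.1 and 53.2 CPM in DT 5 DPA, against 0.521, 1.92 and 1.54 CPM in CTRL. Both pairs of groups were far apart, with log2 fold changes of 6.72 (SE 0.92) for Clec4d and 5.62 (SE 0.92) for Clec4e. At 30 days Clec4d stood at 2.06, 0.575, 0.677 and 1.09 CPM in DT 30 DPA, and Clec4e at 2.32, 0.319, 0.406 and 0.655 CPM. Against DT 5 DPA that gave log2 fold changes of -5.75 (SE 0.76) for Clec4d and -6.13 (SE 0.83) for Clec4e. The Clec4e value was -7.20 without DT 30 DPA replicate 1.

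Il1b (chr2:129364570-129371139, minus strand) was expressed in every library, and it was highest at 5 days. It stood at 42.4, 12.1, 28.7 and 30.3 CPM in DT 5 DPA, against 2.08, 3.30 and 1.29 CPM in CTRL. The log2 fold change was 3.67 (SE 0.52), and that of DT 30 DPA over DT 5 DPA was -2.77 (SE 0.44). Il1rn, its natural antagonist on the same chromosome (chr2:24336853-24351494, plus strand), stood at 34.8, 14.8, 18.5 and 17.9 CPM in DT 5 DPA, against 4.28, 4.91 and 1.04 CPM in CTRL. Its log2 fold change was 2.65 (SE 0.54), and the one of DT 30 DPA over DT 5 DPA was -3.14 (SE 0.50). The ratio of Il1rn to Il1b counts had a median of 0.734 (0.591 to 1.22) in DT 5 DPA, against 1.49 (0.810 to 2.06) in CTRL. These ranges overlap, and the ratio was not tested.

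Tnf (chr17:35199381-35202007, minus strand), the founding member of its cytokine family, differed from the other 9 genes. It stood at 10.6, 6.78, 6.39 and 7.57 CPM in DT 5 DPA, against 8.22, 10.1 and 2.21 CPM in CTRL. The ranges overlap, and the log2 fold change was 0.19 (SE 0.57). At 30 days it stood at 2.13, 1.21, 2.84 and 0.874 CPM in DT 30 DPA, below every DT 5 DPA library, with a log2 fold change of -2.15 (SE 0.55) against them. The lymphocyte markers summed to 231 to 557 CPM in DT 30 DPA, 145 to 863 CPM in DT 5 DPA and 278 to 2180 CPM in CTRL, and their part in the Tnf values was not tested.

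Il6 (chr5:30013114-30019981, plus strand), an inducible cytokine, was rare throughout. Its raw counts were 36, 14, 21 and 33 in DT 5 DPA, against 0, 0 and 1 in CTRL. The ratio of summed counts, scaled by library size, was 88.8 with a 95% interval of 15.6 to 3540 that covers counting error only. The fitted log2 fold change was 5.93, and 7.63 without CTRL replicate 3. At 30 days Il6 had 23 counts over the 4 DT 30 DPA libraries, and the log2 fold change of DT 30 DPA over DT 5 DPA was -2.12 (SE 0.73). Il6 was the only one of the 10 genes that reached the low-count minimum solely through the DT 5 DPA libraries, since 1 other library reached it and 3 were needed. All 10 genes entered the fit. Counts of called genes below include Il6, but its p-values are no test of it, since the DT 5 DPA libraries also chose the genes.

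Nos2 (chr11:78920787-78960254, plus strand) makes nitric oxide from arginine. It stood at 54.3, 22.1, 7.26 and 9.48 CPM in DT 5 DPA, against 1.27, 1.74 and 1.66 CPM in CTRL. The groups did not overlap, yet the 4 libraries at 5 days were themselves widely spread, and replicate 1 was the highest. The log2 fold change was 3.90 (SE 0.76), and 3.05 without DT 5 DPA replicate 1. Ptgs2 (chr1:150100031-150108227, plus strand) encodes the inducible cyclooxygenase of prostaglandin synthesis. It stood at 14.6, 6.21, 3.08 and 4.89 CPM in DT 5 DPA, against 0.174, 0.959 and 0.614 CPM in CTRL. Its log2 fold change was 3.61 (SE 0.93), and 3.00 without DT 5 DPA replicate 1. The inflammasome sensor Nlrp3 (chr11:59541568-59566956, plus strand) was the steadiest of these 3 genes at 5 days. It stood at 20.9, 14.0, 13.1 and 13.7 CPM in DT 5 DPA, against 2.32, 1.98 and 1.23 CPM in CTRL, with a log2 fold change of 3.06 (SE 0.47). Against DT 5 DPA, the log2 fold changes at DT 30 DPA were -4.55 (SE 0.70) for Nos2, -3.85 (SE 0.84) for Ptgs2 and -3.39 (SE 0.43) for Nlrp3. Without DT 5 DPA replicate 1 those of Nos2 and Ptgs2 were -3.70 and -3.24.

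**Figure D1:**
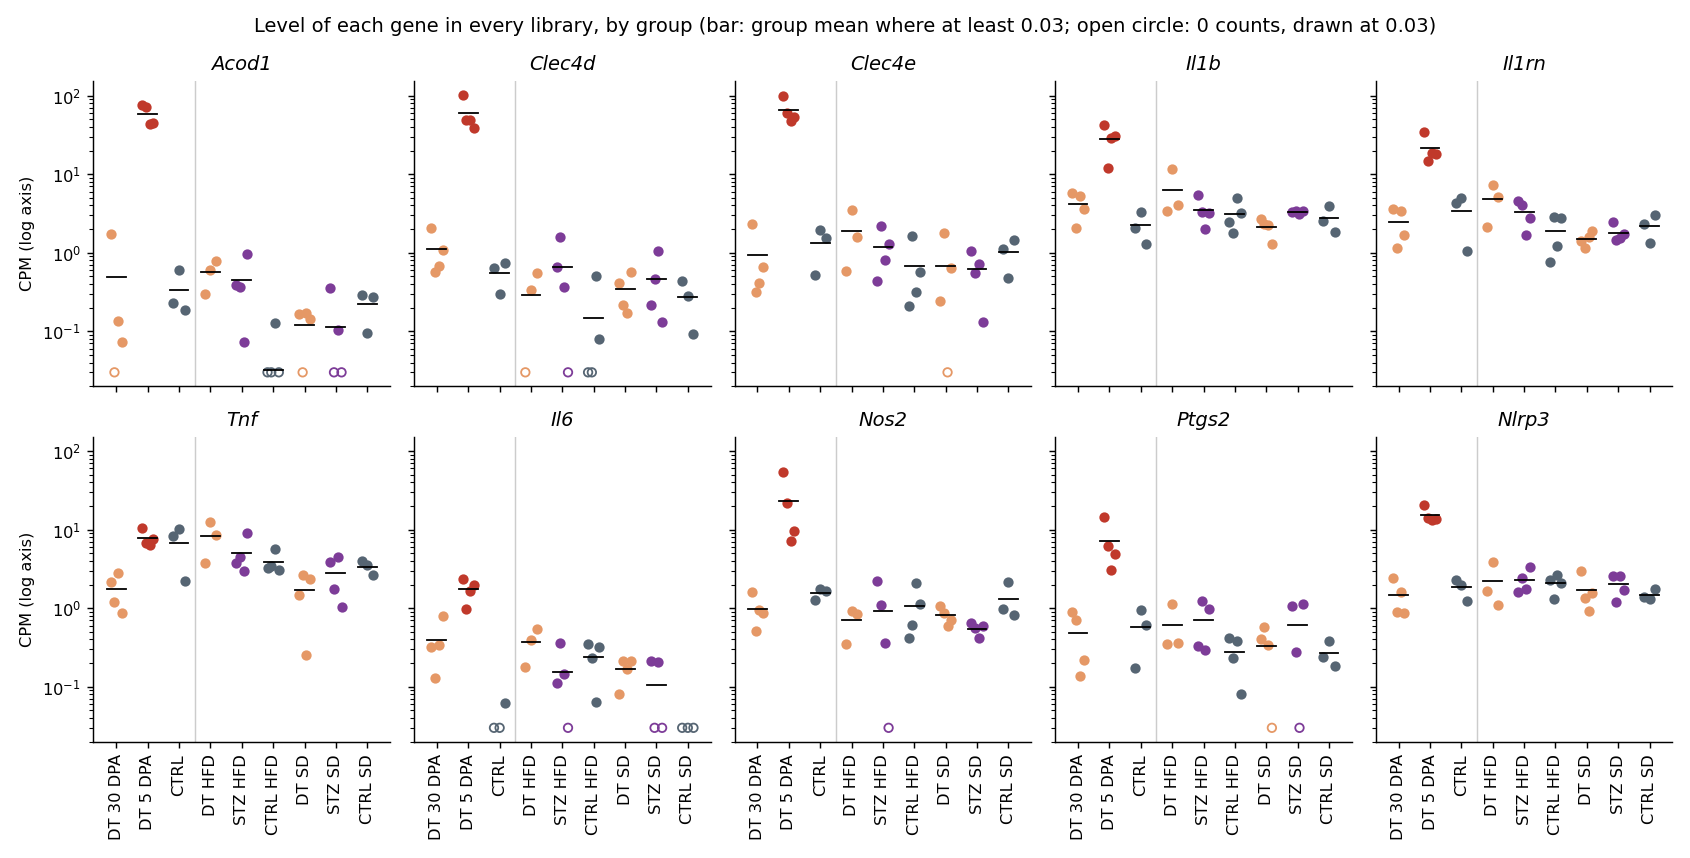
Level of each of the 10 genes in CPM on a log axis (vertical) in each of 33 libraries, by group (horizontal). Points are libraries, bars are group means of at least 0.03 CPM, and open circles are libraries with 0 counts. In 9 panels the 4 DT 5 DPA libraries lie above all 29 others, and in the Tnf panel they do not.

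For 9 of the 10 genes, all 4 DT 5 DPA libraries lay above all 29 others, while 4.06% of the 17616 genes fitted did so. Nothing is read from that share, because these libraries chose the genes. The exception was Tnf, for which 5 other libraries exceeded the lowest DT 5 DPA value. Among the separated genes, Il1b came closest, with a lowest DT 5 DPA value of 12.1 CPM and a highest other value of 11.6 CPM, in DT HFD replicate 2. Replicate 1 was the highest of the 4 DT 5 DPA libraries for all 10 genes, and replicate 1 of DT 30 DPA was the highest of its group for 8 of them. Without the libraries with enterocyte markers, which leaves DT 5 DPA replicate 3 alone in its group, the log2 fold changes over CTRL lay between 2.31 for Nos2 and 7.67 for Acod1 among those 9 genes, and Tnf was at 0.30.

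**Figure D2:**
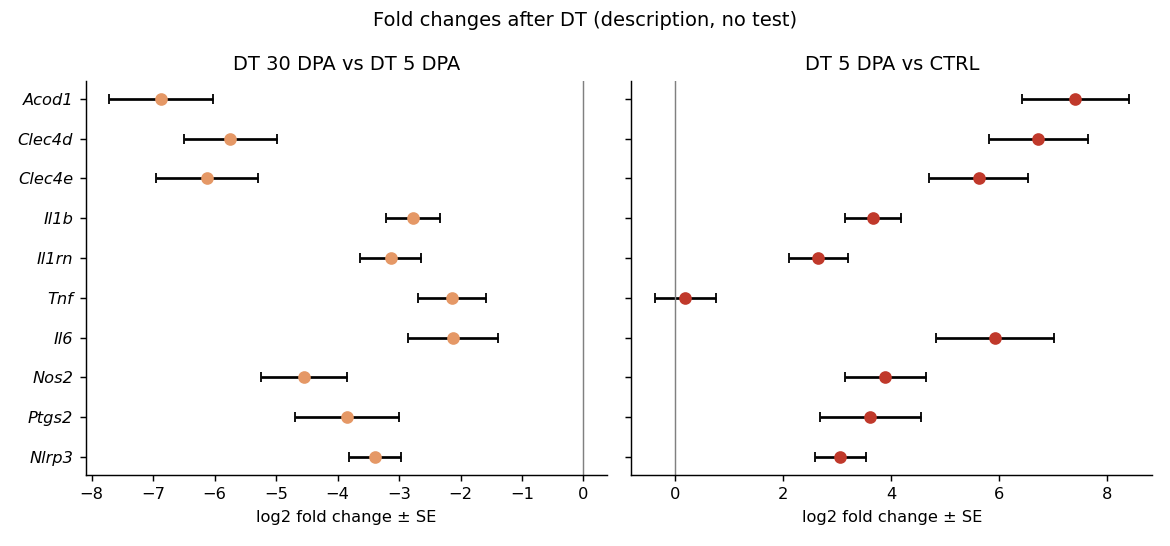
Fitted log2 fold changes (horizontal) with their standard errors for the 10 genes, for DT 30 DPA over DT 5 DPA (left) and DT 5 DPA over CTRL (right). The values for DT 5 DPA over CTRL run between 0.19 for Tnf and 7.40 for Acod1, and the values for DT 30 DPA over DT 5 DPA are all below 0.

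Levels of different genes can be set side by side only per transcript length, and for that the authors' TPM values were used. At DT 5 DPA, Clec4d had the highest mean, at 85.8 ± 44.9 TPM (SD, n = 4), and was followed by Acod1 at 51.7 ± 17.6 TPM. Il1b averaged 33.8 ± 15.5 TPM, Clec4e 30.4 ± 12.5 TPM, Il1rn 15.8 ± 7.26 TPM, Nos2 12.4 ± 11.9 TPM, Tnf 11.0 ± 3.21 TPM and Nlrp3 8.72 ± 2.49 TPM. Ptgs2 at 3.67 ± 2.75 TPM and Il6 at 1.63 ± 0.579 TPM were the lowest. In CTRL the order was another one, with Tnf first at 9.96 ± 6.32 TPM and Il1b next at 2.78 ± 1.43 TPM (SD, n = 3 each). Tnf had the highest mean TPM of the 10 genes in 5 of the 9 groups, Il1b in 3 and Clec4d in DT 5 DPA.

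For the 9 genes other than Tnf, the mean CPM of DT 5 DPA came first, and in the order of the other 8 group means each neighbour overlapped the next in range. For Tnf every neighbour overlapped, with DT HFD at the top (8.23 ± 4.34 CPM, SD, n = 3) and DT SD at the bottom (1.69 ± 1.08 CPM, SD, n = 4). Nos2 was the gene for which the gap between DT 5 DPA and the next group (23.3 ± 21.7 CPM, n = 4, against 1.56 ± 0.249 CPM in CTRL, n = 3) was smaller than the 2 SDs added together, although the ranges did not overlap.

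Markers of several cell types, myeloid and other, moved at 5 days as well. Of 11 macrophage markers tested, 9 were higher in DT 5 DPA than in CTRL (edgeR's quasi-likelihood test, adjusted p below 0.05), with a median log2 fold change of 2.09. Their summed level was 4988 to 7375 CPM in DT 5 DPA, against 713 to 1801 CPM in CTRL. Neutrophil markers rose for 7 of 10 with a median log2 fold change of 4.31, and they summed to 75.7 to 273 CPM in DT 5 DPA, against 9.71 to 31.7 CPM in CTRL, where Camp was at 0 in all libraries. Monocyte markers rose for 3 of 5, with sums of 551 to 1030 CPM in DT 5 DPA, against 112 to 486 CPM in CTRL. Fibroblast markers rose as well, for 4 of 6 with a median log2 fold change of 1.70, and summed to 3035 to 4218 CPM in DT 5 DPA, against 689 to 1219 CPM in CTRL, with none at 0 in every library. Of 5 mesothelial markers 1 rose, and their sums of 39.4 to 238 CPM in DT 5 DPA overlapped the 48.7 to 89.8 CPM in CTRL. Lymphocyte and dendritic cell markers gave 0 calls of 10 and of 6. Beta cell markers gave 0 calls of 8, with a median log2 fold change of -0.31. Their sums of 32259 to 121969 CPM in DT 5 DPA overlapped the 44651 to 146524 CPM in CTRL. The part of these cell types in the values of the 10 genes was not tested. Over all 17616 genes, 5.39% were called in this comparison.

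Set against the macrophage markers of the same library, the 10 genes split by size. The score used is the mean log2 CPM of the 11 markers, and it was subtracted from the log2 CPM of each gene. On this scale Acod1 lay at -1.89 ± 0.38 in DT 5 DPA, against -6.81 ± 0.53 in CTRL (SD, n = 4 and n = 3), a difference of 4.92. The difference was 4.29 for Clec4d and 3.50 for Clec4e, and these values are a description, since the 5-day libraries chose the genes. It was 1.47 for Il1b, 1.43 for Il6, 1.27 for Nos2, 1.21 for Ptgs2, 0.91 for Nlrp3 and 0.70 for Il1rn. For Tnf it was -1.66. With the mean log2 CPM of the neutrophil markers subtracted in the same way, the difference was 3.76 for Acod1, 3.14 for Clec4d and 2.34 for Clec4e. It was 0.31 for Il1b, 0.27 for Il6, 0.11 for Nos2 and 0.05 for Ptgs2, and it was -0.25 for Nlrp3, -0.46 for Il1rn and -2.82 for Tnf. Against the macrophage markers, Nos2 gave -0.12 when libraries with enterocyte markers over 500 CPM were left out, which leaves 1 library in DT 5 DPA. On the same scale the Il6 difference was 3.02 with a prior count of 0.5 in place of 2.

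**Figure D3:**
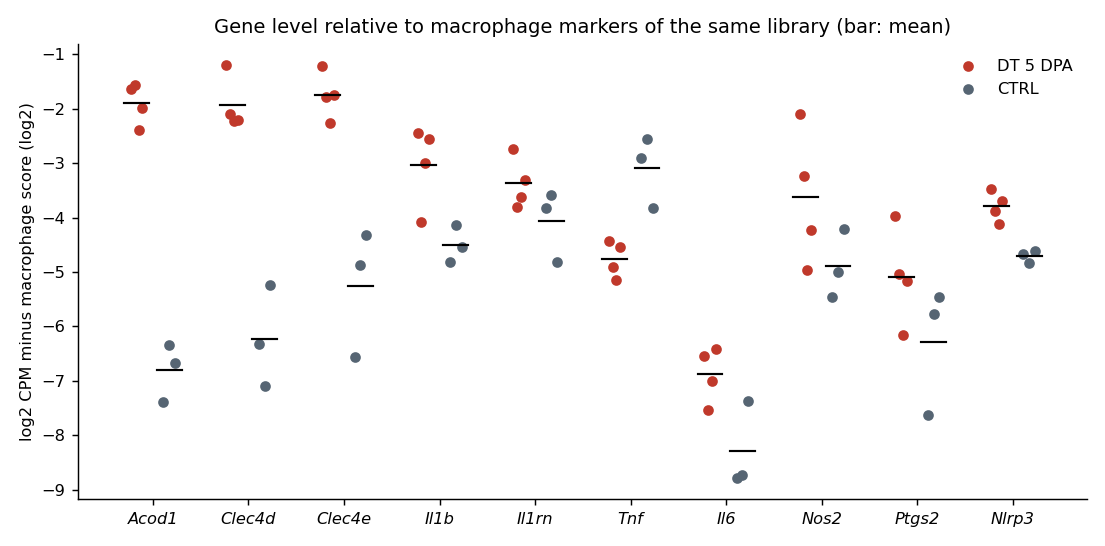
Log2 CPM of each gene minus the mean log2 CPM of 11 macrophage markers in the same library (vertical), for DT 5 DPA (red, 4 libraries) and CTRL (grey, 3 libraries), with bars at the means. Acod1, Clec4d and Clec4e differ by 3.50 to 4.92, and Tnf lies lower in DT 5 DPA.

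Genes that work with the 10 were followed as a list of 80 in 9 roles, all of them tested. At 5 days, 28 of the 80 were higher in DT 5 DPA than in CTRL and 0 were lower, while 3.8% of all genes were called higher and 1.59% lower. The median log2 fold change was 0.49 over the list and -0.05 over all genes. C-type lectins and their adaptors had the largest share, with 9 of 14 higher and a median of 2.00. Fcer1g, the signalling chain that Clec4d and Clec4e depend on, rose by 2.42 on the log2 scale (SE 0.35, adjusted p = 5.55e-05), and the lectin Clec4a2 by 2.27 (SE 0.37, adjusted p = 0.000287). The kinase Syk, downstream of Fcer1g, was not called, whereas 4 of 9 prostaglandin genes were. Among these, the thromboxane synthase Tbxas1 rose by 2.78 (SE 0.36, adjusted p = 1.41e-05) and the prostaglandin E synthase Ptges by 2.12 (SE 0.32, adjusted p = 8.27e-05) on the log2 scale.

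In the role of interleukin 1 and the inflammasome, 5 of 14 genes rose, and the ATP-gated channel P2rx7 had the smallest adjusted p (log2 fold change 2.05, SE 0.31, adjusted p = 0.000124). Tnfaip2, an NF-kB target, rose by 2.76 on the log2 scale (SE 0.31, adjusted p = 3.01e-06), one of 3 of 13 genes in the role of TNF and NF-kB feedback. Tlr2, a receptor for bacterial lipoproteins, rose by 1.52 (SE 0.20, adjusted p = 2.46e-05), one of 4 of 8 pattern receptors and adaptors. Hmox1, which degrades haem and is induced by the itaconate target Nfe2l2, rose by 3.57 (SE 0.55, adjusted p = 0.000141). It was the only gene of the 6 itaconate targets that was called, and its log2 fold change was 2.93 without DT 5 DPA replicate 1. Arg1, which competes with Nos2 for arginine and was named after its value was seen, was the single called gene of the 6 in its role (log2 fold change 3.56, SE 0.67, adjusted p = 0.00131). The role headed anti-inflammatory cytokines (Il10, Tgfb1 and the receptor genes Il10ra, Il1rl2 and Sigirr) gave 0 calls of 5. With the macrophage score as a covariate, 2 of the 80 were called, 1 higher and 1 lower, and 0.414% of all genes. Of these 2 only Arg1 was among the 28. The score was 7.49 to 7.86 in DT 5 DPA, against 5.06 to 5.97 in CTRL, without overlap. A fit with it therefore cannot separate the score from the group.

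**Figure D4:**
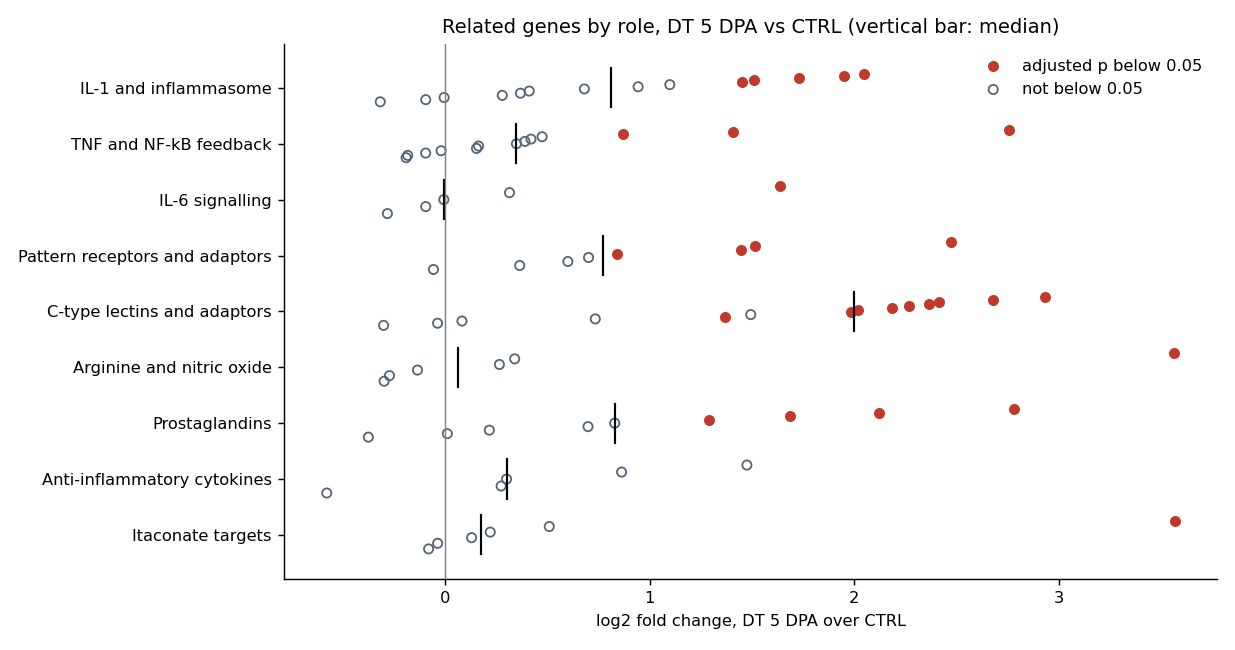
Log2 fold change of DT 5 DPA over CTRL (horizontal) for 80 related genes in 9 roles (vertical). Filled points passed an adjusted p of 0.05 and bars are role medians. The 28 filled points all lie above 0, and 9 of them are C-type lectins or adaptors.

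By 30 days the list had turned. Of the 80 genes, 56 were lower in DT 30 DPA than in DT 5 DPA and 2 were higher, while 13.9% of all genes were called lower, 16.5% higher and 30.5% in either direction, and the list median was -1.48. The 4 smallest adjusted p-values belonged to Tnfaip2 (log2 fold change -2.96, SE 0.28, adjusted p = 6.24e-08), Fcer1g (-2.98, SE 0.32, adjusted p = 3.51e-07), Tbxas1 (-3.01, SE 0.32, adjusted p = 3.51e-07) and Tlr2 (-1.64, SE 0.18, adjusted p = 5.78e-07). The 2 that rose were Il1r1 and Gch1, named after their values were seen. All 8 pattern receptors and adaptors and 13 of 14 C-type lectins and adaptors fell. This comparison shares its DT 5 DPA libraries with the one above. The cell type markers moved too, with 11 of 11 macrophage, 10 of 10 neutrophil, 5 of 5 monocyte, 6 of 6 fibroblast and 3 of 6 dendritic cell markers lower in DT 30 DPA, and 7 of 8 beta cell markers higher. The macrophage markers summed to 567 to 1144 CPM in DT 30 DPA, against 4988 to 7375 CPM in DT 5 DPA, and the beta cell markers to 126027 to 306918 CPM in DT 30 DPA, against 32259 to 121969 CPM in DT 5 DPA. With the macrophage score as a covariate 0 of the 80 and 3 of all 17616 genes were called, and 6 of the 10 main genes kept a log2 fold change below -1. The score was 4.84 to 5.75 in DT 30 DPA, below every DT 5 DPA library, so this fit cannot separate it from the group.

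Against CTRL, none of the 10 genes passed the test at 30 days (0 of 10 called by edgeR's quasi-likelihood test, 2 with an unadjusted p below 0.05, 1 called by DESeq2), while 0.233% of all genes were called. For Tnf the fitted value was -1.95 on the log2 scale (SE 0.58, adjusted p = 0.0633), with levels of 0.874 to 2.84 CPM in DT 30 DPA, against 2.21 to 10.1 CPM in CTRL. DESeq2's Wald test gave it an adjusted p of 0.0177, and without CTRL replicate 3 edgeR gave 0.00833. Il6 had 23 counts in DT 30 DPA, against 1 count in CTRL, a scaled ratio of 19.4 (95% interval 3.15 to 798, counting error only). No p-value is read for Il6, because it entered the fit only through the DT 5 DPA libraries. Adjusted p-values of the other 8 lay between 0.229 and 0.892. Acod1 had a log2 fold change of 0.53 (SE 0.90), which was -2.21 without DT 30 DPA replicate 1. None of the 80 related genes was called, but without CTRL replicate 3 there were 34, while 23.7% of all genes were then called, and without DT 30 DPA replicate 1 there were 9, while 3.63% of all genes were.

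At 10 weeks, ablation left no called difference in the 10 genes on either diet. On HFD, 0 of 10 were called for DT against CTRL (3 with an unadjusted p below 0.05, by edgeR, and 0 by DESeq2), while 0.00568% of all genes were called, and 0 of 10 for STZ against CTRL (2 unadjusted, and 0 by DESeq2), while 0.471% were. Acod1 had 27 counts in the 3 DT HFD libraries and 19 in the 4 STZ HFD libraries, against 2 in the 4 CTRL HFD libraries. The scaled ratios were 15.4 (95% interval 3.87 to 134) for DT HFD and 10.2 (2.45 to 89.9) for STZ HFD, covering counting error only, and the adjusted p-values were 0.330 and 0.246. Both CTRL HFD counts came from replicate 4, without which the fitted log2 fold changes were 6.01 in place of 3.67 for DT HFD and 5.51 in place of 3.18 for STZ HFD. Il1rn stood at 2.12, 7.24 and 5.05 CPM in DT HFD, against 0.768, 2.85, 1.21 and 2.75 CPM in CTRL HFD, with overlapping ranges and an adjusted p of 0.351. None of the 80 related genes was called in either comparison.

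On SD, 0 of 10 were called for DT against CTRL (1 unadjusted, and 0 by DESeq2), while 0.0341% of all genes were, and 0 of 10 for STZ against CTRL (1 unadjusted, and 0 by DESeq2), while 0.00568% were. The unadjusted one was Il6 in both, which is no test of it, because Il6 entered the fit only through the DT 5 DPA libraries. Il6 had 9 counts in DT SD and 5 in STZ SD, against 0 in CTRL SD. Set against an assumed floor of 3 counts over CTRL SD, the scaled ratios were 2.44 for DT SD and 1.41 for STZ SD. They leave out counting error in DT SD and STZ SD, so they are not lower bounds. Log2 fold changes of the other 9 lay between -1.23 and 1.23 in these comparisons.

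Diet was compared within each treatment. In untreated mice 0 of 10 genes were called for HFD against SD (1 unadjusted, and 0 by DESeq2), while 0.0% of all genes were. Acod1 had 2 counts in CTRL HFD, against 10 in CTRL SD, a scaled ratio of 0.152 (95% interval 0.0162 to 0.716, counting error only). Il6 had 13 counts in CTRL HFD, against 0 in CTRL SD, and its p-value is no test of it. Against the assumed floor of 3 counts the scaled ratio was 3.30, which is not a lower bound either. After STZ 0 of 10 were called (0 unadjusted, and 0 by DESeq2), while 0.136% of all genes were, and Gclm, a subunit of the enzyme that makes the glutathione precursor, was the single one of the 80 related genes to fall (log2 fold change -1.20, SE 0.24, adjusted p = 0.044 by edgeR). The Gclm call ended without the enterocyte libraries (log2 fold change -0.44, adjusted p = 0.73), and leaving out 1 library gave adjusted p-values of up to 0.461, without STZ SD replicate 4. Enterocyte markers summed to 19.4 to 157 CPM in STZ HFD, against 50.4 to 15317 CPM in STZ SD.

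After DT the diets differed in 3 of the 10 genes, all higher on HFD, while 15.0% of all genes were called higher. Tnf stood at 3.71, 12.4 and 8.64 CPM in DT HFD, against 1.47, 2.66, 0.253 and 2.37 CPM in DT SD. The groups did not overlap, and the log2 fold change was 2.27 (SE 0.58, adjusted p = 0.00944, edgeR's quasi-likelihood test). Il1rn stood at 2.12, 7.24 and 5.05 CPM in DT HFD, against 1.39, 1.15, 1.60 and 1.86 CPM in DT SD (log2 fold change 1.67, SE 0.51, adjusted p = 0.0217 by edgeR). Il1b stood at 3.35, 11.6 and 4.02 CPM in DT HFD, against 2.70, 2.30, 2.27 and 1.29 CPM in DT SD (log2 fold change 1.56, SE 0.46, adjusted p = 0.0178 by edgeR). Each of the 3 was higher in all 3 DT HFD libraries than in any DT SD library, as were 20.7% of all genes, and replicate 2 was the highest of them. Of the 80 related genes 33 were higher and 3 lower, while 8.46% of all genes were called lower and 23.5% in either direction. The smallest adjusted p-values were those of the RNA-binding protein Zfp36, which destabilises Tnf mRNA (log2 fold change 1.41, SE 0.30, adjusted p = 0.00466), Nfkb2 (1.76, SE 0.38, adjusted p = 0.00515), Syk (2.27, SE 0.50, adjusted p = 0.00515) and Tgfb1 (1.51, SE 0.34, adjusted p = 0.00549). In the role of TNF and NF-kB feedback 10 of 13 were higher.

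Other cell types moved in the same comparison. Lymphocyte markers were higher for 7 of 10 and summed to 1236 to 2183 CPM in DT HFD, against 80.2 to 782 CPM in DT SD, with none at 0 in every library. Macrophage markers were higher for 2 of 11 and summed to 667 to 1442 CPM in DT HFD, against 348 to 802 CPM in DT SD. Dendritic cell markers were higher for 3 of 6 and lower for 1, and their sums did not overlap, with medians of 91.9 CPM in DT HFD, against 44.2 CPM in DT SD. Acinar markers were lower for 1 of 6 and summed to 5236 to 15068 CPM in DT HFD, against 31310 to 136475 CPM in DT SD. Enterocyte markers were higher for 4 of 6, with 1980 CPM in the highest DT HFD library, against at most 56.6 CPM in DT SD. Beta cell markers were lower for 5 of 8 and summed to 29716 to 110513 CPM in DT HFD, against 230252 to 252212 CPM in DT SD. With the lymphocyte score as a covariate, 0 of the 10, 0 of the 80 and 0 of all 17616 genes were called, and the log2 fold change of Tnf was 0.89 (SE 0.53). That score was 6.25 to 7.16 in DT HFD, against 2.49 to 5.88 in DT SD, without overlap, so this fit cannot separate it from diet. With the macrophage score 0 of the 10 were called, and 5.4% of all genes. Without DT HFD replicate 2, 0 of the 10, 0 of the 80 and 0 of all 18068 genes tested were called. The log2 fold change was then 1.86 for Tnf, 1.25 for Il1rn and 0.78 for Il1b. Without the enterocyte libraries, DT HFD replicate 1 among them, DT HFD kept replicates 2 and 3. Tnf, Il1rn and Il1b were then called higher, with adjusted p-values of 0.00362, 0.00676 and 0.00449 by edgeR. In that fit 3407 of 18495 genes were called higher and 3074 lower. The interaction of DT with diet, which sets the DT effect on HFD against that on SD, was called for 0 of 10 genes (5 unadjusted, and 0 by DESeq2) and for 0.0% of all genes, and that of STZ with diet for 0 of 10 (2 unadjusted, and 0 by DESeq2).

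**Figure D5:**
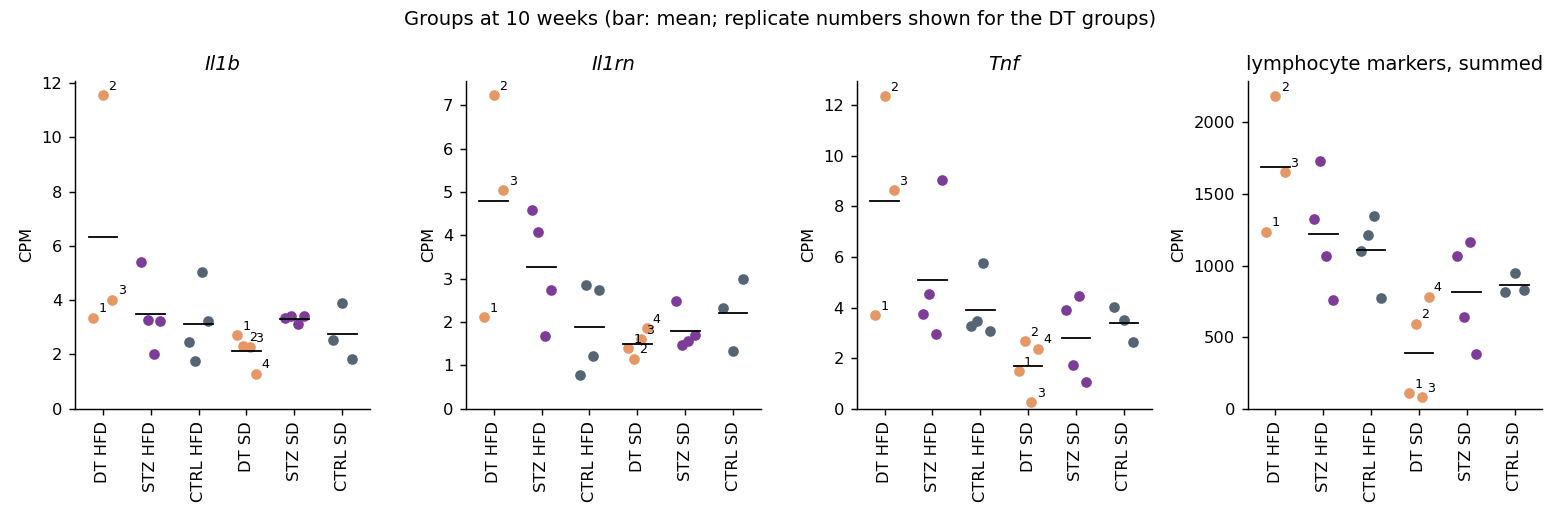
CPM (vertical, from 0) of Il1b, Il1rn, Tnf and the summed lymphocyte markers in the 6 groups at 10 weeks (horizontal). Points are libraries, bars are means, and numbers are replicates of the DT groups. DT HFD replicate 2 is the highest of all plotted libraries in each of the 4 panels.

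The genes most like each of the 10 in their order over the 33 libraries differed between them. For Acod1 they were the beta-glucan receptor Clec7a (Spearman's rho 0.79), the myeloid marker Aif1 (0.78) and Clec12a (0.78), and for Clec4d they were Pf4 (0.85), Serpinf1 (0.81) and Clec3b (0.81). For Clec4e they were Mx1 (0.76), P2rx7 (0.76) and Il10 (0.76). Tnf had the closest companions of all, Ppm1m (0.93), Gmfg (0.92) and Parp3 (0.91). For Il6 they were the neutrophil genes Ngp (0.73) and S100a9 (0.71) with Troap (0.68), and for Nos2 they were Ifng (0.81), Cdh11 (0.80) and Rbpj (0.78). Il1b was closest to Tnfaip2 (0.72), Il1rn to Bcl2a1b (0.83), Ptgs2 to Tiam2 (0.85) and Nlrp3 to Slc37a2 (0.77). Between the 10 genes themselves the rho ran between 0.18 for Clec4d with Tnf and 0.77 for Acod1 with Il1rn. These values describe 33 libraries that share groups and the content of other tissues, and they carry no test.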

How the data were processed

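Bulk RNA-seq libraries were made, per the labels' protocols, from islet RNA (RNeasy Mini kit) with the QIAseq stranded mRNA kit, and the submitters' processing notes name the assembly mm10. No source used here names the aligner, the counting tool or its strand setting. Total counts per gene, as deposited by the authors, were tested without prior scaling. The authors' TPM was used to set levels of different genes side by side, and the authors' RPKM was not used. A deposited column headed CPM sums to 0.784 to 2.106 times the sum CPM would have, so it is a score of unknown scaling and was not used. No column belonged to other samples. Of 48709 identifiers, 48349 (99.26%) were found in GENCODE M21.

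Counts were fitted with edgeR 4.0.16 (R 4.3.3). Genes were kept by filterByExpr by group (minimum count 10, total 15), leaving 17616. TMM scaling and 1 robust quasi-likelihood fit over 33 libraries gave all comparisons as contrasts, with Benjamini-Hochberg adjustment over all genes and a call at an adjusted p below 0.05. CPM values refer to TMM-scaled library sizes, log2 CPM uses a prior count of 2, and SE is on the log2 scale. The fit was tested on simulated data. The 10 genes, the marker lists, the list of 80 related genes and the comparisons were chosen with earlier results of these data known. Related genes were named by the smallest adjusted p (8 for DT 5 DPA against CTRL, 4 in every other comparison), and like genes by the 3 highest Spearman's rho. Alternatives were DESeq2 size factors, no and a stricter low-count filter (1 CPM in 3 libraries, 50 counts summed over libraries), scaling without hormone genes, the replicate block, DESeq2 1.42.0, the macrophage score as a covariate, leaving out libraries with over 500 CPM of enterocyte markers, the compared groups alone, a prior count of 0.5, and leaving out each library. The lymphocyte score was added as a covariate after seeing the data. Promoter windows come from RefSeq on GRCm38.p6.

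The library titled as a CTRL HFD replicate whose treatment label is DT entered no comparison. No pair of libraries in a group agreed within counting noise (lowest chi-square per degree of freedom 25.7), so none was counted as a duplicate.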

Additional observations from a re-analysis of the deposited data

Results flagged for a closer look

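Of 60 sets of 4 libraries (a gene in a group) screened with the cutoff of Dixon's test for a library that stands apart, 8 held one. No chance rate is set beside this, because many values lie near 0 and the genes share libraries. For the DT 5 DPA libraries the screen is a description. In DT 5 DPA, replicate 1 stood above the other 3 for Clec4d, at 102 CPM against 38.6 to 49.2 CPM, and for Nlrp3, at 20.9 CPM against 13.1 to 14.0 CPM. In DT 30 DPA, replicate 1 stood apart for Acod1, at 1.74 CPM against 0 to 0.135 CPM, and for Clec4e, at 2.32 CPM against 0.319 to 0.655 CPM. In CTRL HFD, replicate 4 stood apart for Acod1, at 0.128 CPM against 0 CPM in the others, for Clec4d, at 0.511 CPM against 0 to 0.0808 CPM, and for Tnf, at 5.75 CPM against 3.07 to 3.47 CPM. In DT SD, replicate 2 had 0 CPM of Acod1, against 0.143 to 0.168 CPM in the others. The Acod1 and Clec4d values in CTRL HFD and DT SD rest on a few counts.

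The library whose labels disagree, and which is in no group, exceeded all 10 untreated libraries for 4 of the 10 genes, in counts per 1000000 of the unscaled library total, as it did for 10.6% of all genes. It had 1.19 for Clec4d, against at most 0.863 in untreated libraries, 9.87 for Il1b, against at most 6.30, 0.630 for Il6, against at most 0.344, and 1.19 for Ptgs2, against at most 1.18.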

How the results depend on the processing

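Counts of the 10 genes called differed from those reported with DESeq2, with either score as a covariate and on leaving out 1 library. DESeq2's Wald test called 1 for DT 30 DPA against CTRL. For DT HFD against DT SD, 0 were called with the macrophage score as a covariate and 0 with the lymphocyte score. With the macrophage score, 6 of 10 log2 fold changes of DT 30 DPA over DT 5 DPA were below -1, against 10, and that of Tnf was 0.38. Relative to macrophage markers Nos2 gave -0.12 without the libraries with enterocyte markers. Of the 80 related genes, DT 5 DPA against CTRL gave 2 with the macrophage score, 10 without those libraries (leaving 1 in DT 5 DPA) and 18 with the compared groups alone, against 28. DT 30 DPA against DT 5 DPA gave 0 and 30 under the first and second of these, against 58. DT HFD against DT SD gave 6 with the macrophage score and 0 with the lymphocyte score, against 36. DT 30 DPA against CTRL gave 1 with the stricter filter, 6 with hormone genes left out and 20 with DESeq2, against 0, while 1.53%, 1.77% and 11.1% of all genes were called, against 0.233%. DESeq2 gave 1 for DT SD and 5 for STZ SD against CTRL SD, and 1 for DT HFD against CTRL HFD. Leaving out the enterocyte libraries gave 5 for DT HFD against CTRL HFD. Over all genes, DESeq2 called 55 higher and 99 lower of 17581 for DT SD, and 651 and 37 of 16559 for STZ SD. For DT HFD it called 47 and 16 of 17581, and the fit without the enterocyte libraries called 312 and 510 of 18495. STZ HFD against STZ SD gave 5 with DESeq2, against 1, while 36 of 16899 genes were called higher and 573 lower. It gave 0 without a filter, without the enterocyte libraries, with the compared groups alone and with the replicate block. The causes were not tested. Where a score did not overlap between the compared groups, the fit cannot separate it from the group.

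Leaving out 1 library each gave 0 to 2 of the 10 genes for DT 30 DPA against CTRL and 0 to 4 for DT HFD against DT SD. Of the 80 it gave 21 to 26 for DT 5 DPA against CTRL, 52 to 59 for DT 30 DPA against DT 5 DPA, 0 to 34 for DT 30 DPA against CTRL, 0 to 4 for STZ SD against CTRL SD, 0 to 43 for DT HFD against DT SD (18 without DT SD replicate 3, 23 without DT SD replicate 1) and 0 to 6 for STZ HFD against STZ SD. In STZ SD against CTRL SD, 4 were called without STZ SD replicate 3, while 457 of 17621 genes were called higher and 10 lower. In STZ HFD against STZ SD, 6 were called without STZ SD replicate 3, while 164 of 17621 genes were higher and 777 lower. Over all genes, DT HFD against DT SD gave 0 calls without DT HFD replicate 2. Without DT HFD replicate 1 it gave 3048 higher and 1950 lower of 18058. DT 30 DPA against CTRL gave 2219 higher and 2054 lower of 18056 without CTRL replicate 3. Where 1 library remained in a group, it was assumed to vary like the others.

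Same-numbered libraries correlated by -0.12 to 0.65, with 0.40 and 0.65 for replicates 2 and 3 of DT 5 DPA and CTRL. Differently numbered libraries were not set beside them, so whether replicate numbers pair the samples was not settled. The main fit took the samples as unpaired. With the replicate block, 3 of the 10 and 35 of the 80 were called for DT HFD against DT SD, 27 of the 80 for DT 5 DPA against CTRL and 56 for DT 30 DPA against DT 5 DPA. Low counts limit Acod1, Clec4d and Il6 outside DT 5 DPA.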

Other observations

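In the library in no group, counts per 1000000 of the unscaled library total were 0.420 for Acod1, 1.89 for Clec4e, 5.95 for Il1rn, 10.0 for Tnf, 0.630 for Nos2 and 2.66 for Nlrp3. For 8 of the 10 genes it lay above every CTRL HFD library, the group its title names, and for Nos2 and Nlrp3 it did not, while it did so for 26.6% of all genes.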
